A study of Mus musculus with 6 samples.

Results

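The proteasome is the barrel-shaped protease that degrades ubiquitin-tagged proteins in the cytosol and nucleus. Its core particle stacks rings of alpha subunits (Psma genes) around rings of beta subunits (Psmb genes), of which Psmb5, Psmb6 and Psmb7 carry the proteolytic sites. A regulatory cap built from ATPases (Psmc genes) and non-ATPase subunits (Psmd genes) binds ubiquitin chains, removes them and unfolds the substrate. Other proteins open the core without ubiquitin recognition (Psme genes), inhibit it (Psmf1) or help to assemble it (Psmg genes). Neurons depend on the proteasome for protein quality control and for turnover at synapses.

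The members were the rows of the deposited count table whose symbol matches Psma to Psmg followed by a number, leaving out the immunoproteasome genes Psmb8, Psmb9 and Psmb10. This gave 46 of the 23079 rows: 16 core genes, 21 cap genes and 9 genes of activators, inhibitor and assembly factors. The filter on low counts kept 45 of the 46, and only Psmb11, a thymus subunit with at most 9 counts in any library, was not tested. Psma8, a testis subunit, lay between 0.0456 and 0.222 CPM. Psmc3ip, which lay between 2.14 and 3.97 CPM, encodes a meiotic recombination factor named for binding the Psmc3 protein and is no cap subunit, but the name rule counts it there. The mean of the remaining 43 tested genes reached 10 CPM.

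The samples were midbrain dopaminergic neurons from C57BL/6 mice of the Dat bacTRAP line, in which a transgene tags ribosomes of cells that use the dopamine transporter promoter. AAV1 carried an shRNA against Satb1 together with EGFP (knockdown) or a scrambled shRNA with EGFP (control), so that all libraries come from virus-injected animals. Both the substantia nigra pars compacta (SNpc) and the ventral tegmental area (VTA) were taken from slices of 1 mm. The labels name 3 mice at an age of 4 months, but not which of the 3 control and 3 knockdown libraries came from which mouse, so p-values measure the spread between libraries only.

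Library totals lay between 147486754 and 170351145 counts, and levels are given as CPM, counts scaled to the size of the library with the trimmed mean of M-values (TMM). Where 3 values follow each other they are libraries 1, 2 and 3 of a group. Satb1 was at 351, 350 and 319.8 CPM in the controls and 82.9, 166 and 61.2 CPM in the knockdown, a fall of 3.29-fold (edgeR adjusted p = 0.00106). Slc6a3 and Th, defining markers of the labelled cell type, were at means of 4489 and 3507 CPM in controls and of 2731 and 2410.0 CPM in the knockdown. Of 10 markers of dopamine neurons 7 fell, and of 7 pan-neuronal markers 4 fell and 1 rose. Of 10 oligodendrocyte markers 8 rose, and their summed level went from a range of 403 to 472 CPM in controls to a range of 636 to 719 CPM in the knockdown. Of 9 astrocyte markers 2 were higher and 1 lower, with a median log2 fold change of 0.63. Their summed level, 265 to 309 CPM in controls and 246 to 250 CPM in the knockdown, followed Slc1a2, which went from a mean of 244.7 to 176.7 CPM while the other 8 had positive log2 fold changes. Of 10 microglia markers 2 were higher and 2 lower, with a median log2 fold change of 1.04, and their summed level was 52.4 to 55.7 and 44.4 to 51.8 CPM in the same order. The summed level of 6 endothelial markers was 2.67 to 3.55 and 3.31 to 3.92 CPM, with 1 higher. No marker was at 0 counts in all libraries, and the part of these shifts in the results on proteasome genes was not tested. In such bulk samples fewer cells of a type and less RNA per cell cannot be told apart.

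After Satb1 knockdown most proteasome genes had small differences from their control level, and a few members departed from the rest in either direction. Psmd6 and Psmg3 fell more than 2-fold and Psmb4 fell 1.58-fold, whereas the activator gene Psme4 rose 1.57-fold. By edgeR's quasi-likelihood test with adjustment over all genes (adjusted p under 0.05), 6 members were lower, 4 were higher and 35 were not called. The 33 uncalled members whose mean reached 10 CPM had log2 fold changes between -0.21 and 0.26. The called members are 22.2% of the tested members, where 21.1% of all 16766 tested genes were called (12.6% lower and 8.48% higher). The groups did not overlap in 22 members, or 48.9%, against 38.7% of all tested genes. Among genes whose mean reached 10 CPM these shares were 48.8% and 49.1%, so the members did not stand out at their level. At that level, 23.3% of the 43 members and 30.5% of the 9471 genes were called. The median size of the log2 fold change, regardless of direction, was 0.13 in the former and 0.23 in the latter. The median log2 fold change of the tested members was -0.03, that of all tested genes 0.01. With total counts in place of TMM these medians were 0.14 and 0.18. Of all called genes 74.0% were then higher, against 40.2% with TMM, and 3 members were lower (Psmb4, Psmd6 and Psmg3) and 8 higher.

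**Figure D1:**
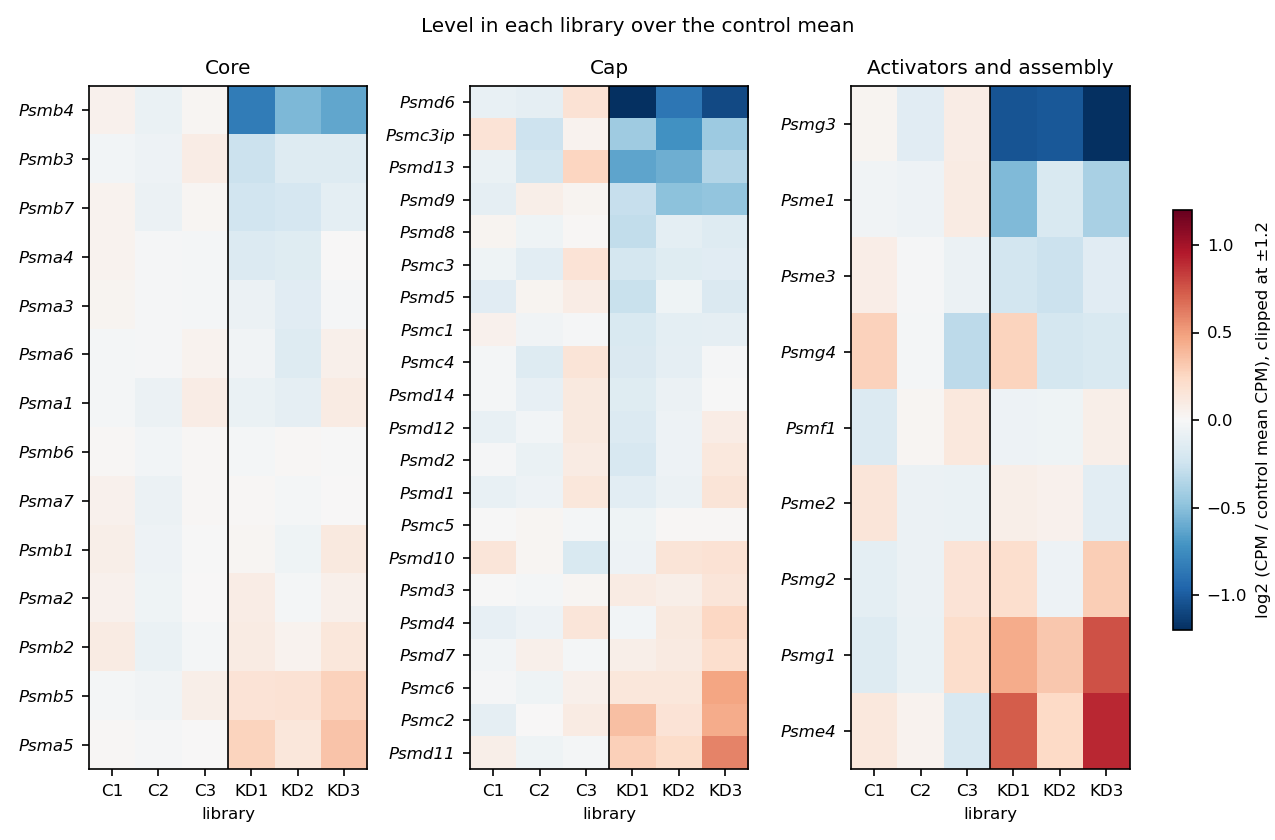
Each row is a tested proteasome gene and each column a library (C1 to C3 control, KD1 to KD3 knockdown). Colour gives the log2 ratio of the CPM to the control mean, red for higher and blue for lower, with genes ordered by their log2 fold change in each class and Psma8 left out for its low counts. Psmb4, Psmd6 and Psmg3 are blue in all 3 knockdown libraries, and Psme4 is red in all 3.

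Among 15 tested core genes 1 fell, none rose and 14 were not called, with a median log2 fold change of -0.03. The called share was 6.67%, against 21.1% of all tested genes. Among genes whose mean reached 10 CPM, as in all tested core genes but Psma8, it was 30.5%. At an unadjusted p under 0.05, 2 core genes were higher (Psma5 and Psmb5) and 2 lower (Psmb4 and Psmb7). DESeq2 called 1 higher, Psma5, and limma-voom none. The summed level of the 16 core genes was 3696, 3487 and 3662 CPM in controls and 3408, 3373 and 3604 CPM in the knockdown, so that the groups overlapped.

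Psmb4, a beta subunit without a proteolytic site, was the core gene that fell. The 3 controls held it at 401, 366 and 395 CPM and the knockdown at 217, 267 and 251 CPM. Every knockdown library lay below every control library. The mean went from 387 ± 18.5 to 245 ± 25.5 CPM (SD, n = 3 each). On the log2 scale this was -0.66 ± 0.10 (SE; edgeR adjusted p = 0.000791). Psmb4 (gene identifier 19172) is at chr3:94884324-94886958, minus strand, in GRCm38, the assembly also called mm10. No exon of another annotated gene overlaps it. It was called lower in all 14 alternative analyses, with a log2 fold change between -0.73 and -0.50.

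The genes of the proteolytic subunits were not called in the main fit, which used TMM scaling, the filter on low counts given above and no block. Psmb5, the chymotrypsin-like subunit, was at 172, 170 and 184 CPM in controls and 197, 197 and 212 CPM in the knockdown, without overlap. Its log2 fold change was 0.21, with a 95% interval from 0.02 to 0.39 (edgeR adjusted p = 0.116). Total-count scaling (adjusted p = 0.00781), the filter at a mean of 1 CPM (0.047) and the replicate block (0.0368) brought Psmb5 past the threshold. Psmb6, the caspase-like subunit, was at 246, 237 and 246 CPM in controls and 238, 244 and 242 CPM in the knockdown. The interval of its log2 fold change, -0.18 to 0.17, leaves out changes as large as that of Psmb4. Psmb7, the trypsin-like subunit, was at 484, 447 and 478 CPM in controls and 399, 409 and 432 CPM in the knockdown. Here, too, the groups did not overlap, and the log2 fold change of -0.18 was not called (edgeR adjusted p = 0.14), though Psmb7 passed with the replicate block (adjusted p = 0.0456). Exons of Psmb7 share 405 bases with Nek6 on the opposite strand, and those of Psmb5 share 109 bases with Mir686 on the same strand, so both values are uncertain.

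None of the 8 alpha subunit genes was called by edgeR, and 1 was higher at an unadjusted p under 0.05. That gene, Psma5, was at 257, 251 and 254 CPM in controls and 305, 279 and 321 CPM in the knockdown. All 3 knockdown libraries lay above the controls, with a log2 fold change of 0.25 (interval 0.06 to 0.44; edgeR adjusted p = 0.0623). DESeq2, total-count scaling, a filter at a mean of 1 CPM, the replicate block and the omission of knockdown library 2 brought it past the threshold. Psma7 showed a log2 fold change of -0.00 between means of 328 and 327 CPM, with an interval from -0.18 to 0.18. Psma1, Psma2, Psma3, Psma4 and Psma6 had log2 fold changes between -0.10 (Psma4) and 0.04 (Psma2), and the groups overlapped in each. The further beta subunit genes Psmb1 (0.03), Psmb2 (0.09) and Psmb3 (-0.19, adjusted p = 0.167 by edgeR) were not called either. Psma3, Psma4, Psma5, Psmb3 and Psmb5 have transcripts of other loci that match them over 618 to 952 bases at 95% identity or more, so the split of their reads is uncertain.

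**Figure D2:**
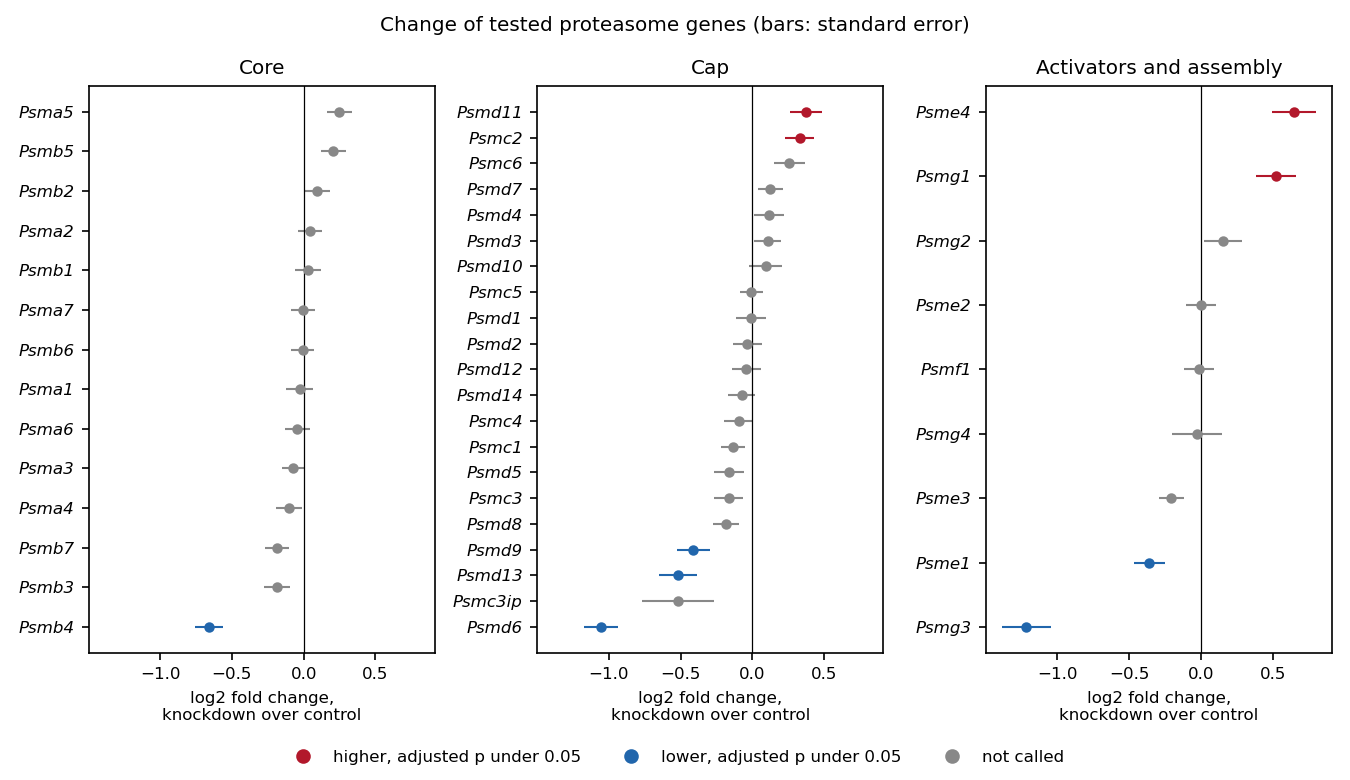
Points give the log2 fold change of knockdown over control for each tested gene of the 3 classes, from the fit to all 6 libraries, and bars give 1 standard error. Blue and red mark genes called lower and higher at an adjusted p under 0.05, and Psma8 is left out for its wide error. Most core genes lie within 0.25 of 0, and Psmb4 stands apart at -0.66.

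Among 21 tested genes of the cap 3 fell (Psmd6, Psmd13 and Psmd9), 2 rose (Psmd11 and Psmc2) and 16 were not called, with a median log2 fold change of -0.04. That is 14.3% lower and 9.52% higher, against the shares over all genes given above. Among genes whose mean reached 10 CPM, as in all of the class but Psmc3ip, 20.8% were lower and 9.68% higher. The summed level of the class was 2748, 2724 and 2939 CPM in controls and 2573, 2698 and 2894 CPM in the knockdown.

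Psmd6 encodes a subunit of the lid, the part of the cap that holds the deubiquitinase. It was at 149.8, 147 and 179 CPM in controls and at 66.9, 87.3 and 74.9 CPM in the knockdown. The highest knockdown library was well below the lowest control. The mean fell 2.08-fold, from 159 ± 17.8 to 76.4 ± 10.3 CPM (SD, n = 3 each). On the log2 scale this was -1.06 ± 0.12 (SE; edgeR adjusted p = 0.000318). Psmd6 (gene identifier 66413) is at chr14:14112185-14120945, minus strand, without exon overlap with another gene and without a near-identical transcript. All 14 alternative analyses called it lower, with log2 fold changes from -1.16 to -0.89.

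The other lid genes differed in direction and size. Psmd13, also a lid subunit, was at 64.2, 58.2 and 81.3 CPM in controls and 43.9, 45.1 and 53.4 CPM in the knockdown, a log2 fold change of -0.52 ± 0.13 (edgeR adjusted p = 0.0157). Its exons share 152 bases with Sirt3 on the opposite strand, and omitting control library 3 or knockdown library 1, or scaling to total counts, ended the call (adjusted p from 0.0644 to 0.0741). Psmd11, another lid subunit gene, went the other way, from 78.1, 71.7 and 72.8 CPM in controls to 90.5, 86.4 and 112 CPM in the knockdown, a log2 fold change of 0.38 ± 0.11 (edgeR adjusted p = 0.0309). That call was lost without any single control library and without knockdown library 3 (adjusted p from 0.0545 to 0.117). A transcript at another locus matches 1501 bases of Psmd11 at 95% identity or more. The deubiquitinase gene Psmd14 was at -0.07, with an interval from -0.28 to 0.13, and the lid genes Psmd3 (0.11), Psmd7 (0.13), Psmd8 (-0.19) and Psmd12 (-0.04) were not called. For Psmd8 (edgeR adjusted p = 0.166) all knockdown libraries, at 144 to 162 CPM, lay below the controls, at 169.5 to 180.1 CPM.

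The ATPase genes form the ring that unfolds substrates. Of 6, Psmc2 rose and 5 were not called. Psmc2 was at 129, 138 and 148 CPM in controls and 178, 155 and 188 CPM in the knockdown, a log2 fold change of 0.33 ± 0.10 (edgeR adjusted p = 0.0348). The knockdown libraries all lay above the controls, but the call was lost without control library 1 or 2 or knockdown library 1 or 3 (adjusted p from 0.0737 to 0.126). Psmc6 was at 115, 112 and 120.3 CPM in controls and 127, 127 and 160.3 CPM in the knockdown (log2 fold change 0.26, edgeR adjusted p = 0.112). Psmc5 was at means of 411 and 409 CPM (interval -0.18 to 0.17), and Psmc1 (-0.14), Psmc3 (-0.17) and Psmc4 (-0.10) were not called. Exons of Psmc3 share 97 bases with Slc39a13 on the opposite strand.

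Near-identical transcripts of other loci also exist for Psmc1 (1306 bases) and Psmd2 (2726 bases). Among the scaffold and receptor genes of the cap, Psmd1 (-0.01), Psmd2 (-0.03) and the ubiquitin receptor gene Psmd4 (0.12) were not called, and the groups overlapped in each. Exons of Psmd1 share 301 bases with Gm21972 on the same strand, so its value is uncertain. Psmd5, Psmd9 and Psmd10 carry cap names but encode chaperones that assemble the ATPase ring. Psmd9 fell, from 28.5, 32.4 and 31.4 CPM in controls to 25.4, 21.8 and 22.2 CPM in the knockdown (log2 fold change -0.41 ± 0.12, edgeR adjusted p = 0.024). Scaling to total counts ended that call, as did leaving out library 2 or 3 of either group (adjusted p from 0.0645 to 0.173). Psmd5 (-0.16) and Psmd10 (0.09) were not called. Psmc3ip, the meiotic factor, had 3.97, 2.99 and 3.65 CPM in controls and 2.64, 2.14 and 2.62 CPM in the knockdown, a log2 fold change of -0.52 with an interval from -1.07 to 0.02 (edgeR adjusted p = 0.167).

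Of 9 tested genes of activators, inhibitor and assembly factors 2 fell (Psmg3 and Psme1), 2 rose (Psme4 and Psmg1) and 5 were not called. That is 22.2% in each direction, against 12.6% lower and 8.48% higher of all tested genes. Among genes whose mean reached 10 CPM, as in all of this class, 20.8% were lower and 9.68% higher. With so few genes 1 gene moves such a share by more than 10 percentage points. The summed level, from 535 to 560 CPM in controls and 509 to 550.4 CPM in the knockdown, overlapped between the groups.

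Psmg1 to Psmg4 encode chaperones that act in pairs on the alpha ring, Psmg1 with Psmg2 and Psmg3 with Psmg4. Psmg3 was at 27.9, 24.9 and 29.1 CPM in controls and at 13.4, 13.5 and 8.43 CPM in the knockdown. All knockdown libraries were far below the controls, and library 3 was lowest. The mean fell 2.32-fold, from 27.3 ± 2.19 to 11.8 ± 2.88 CPM (SD, n = 3 each). On the log2 scale this was -1.22 ± 0.17 (SE; edgeR adjusted p = 0.000664). Psmg3 (gene identifier 66506) is at chr5:139823613-139826894, minus strand. It shares 237 exon bases with Gm26938 on the same strand, so reads from this stretch cannot be assigned to either gene by strand. All 14 alternative analyses called it lower, between -1.32 and -1.01.

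Its partner Psmg4 was at 20.4, 16.6 and 13.6 CPM in controls and 20.2, 14.6 and 14.8 CPM in the knockdown, overlapping ranges with a log2 fold change of -0.03 and an interval from -0.40 to 0.35. Psmg1 rose from 28.1, 29.8 and 36.3 CPM in controls to 42.8, 39.2 and 53.1 CPM in the knockdown, a log2 fold change of 0.52 ± 0.14 (edgeR adjusted p = 0.0182). The groups did not overlap, but the call was lost without control library 1 or 2 or knockdown library 3 (adjusted p from 0.0555 to 0.0767). Its partner Psmg2 was at 20.5, 21.2 and 24.9 CPM in controls and 25.6, 21.3 and 27.2 CPM in the knockdown, a log2 fold change of 0.15 (edgeR adjusted p = 0.456). Neither difference between partners was tested.

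Psme4 encodes a large activator that binds the end of the core, mainly in the nucleus. It was at 48.3, 45.5 and 38.5 CPM in controls and at 72.8, 52.2 and 82.8 CPM in the knockdown. Library 2 of the knockdown was close to the controls, though still above them. The mean went from 44.1 ± 5.05 to 69.2 ± 15.6 CPM (SD, n = 3 each). On the log2 scale this was 0.65 ± 0.15 (SE; edgeR adjusted p = 0.0104). All 14 alternative analyses called it higher, with an adjusted p up to 0.0447 and log2 fold changes from 0.52 to 0.82. Psme4 (gene identifier 103554) is at chr11:30771775-30881150, plus strand, with no exon overlap.

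Psme1 and Psme2 encode the subunits of a ring activator that interferon induces. Psme1 was at 93.5, 92.1 and 103.5 CPM in controls and 66.9, 84.9 and 73.7 CPM in the knockdown (log2 fold change -0.36 ± 0.11, edgeR adjusted p = 0.0335). Scaling to total counts ended the call, as did leaving out any single library other than knockdown library 2 (adjusted p from 0.0638 to 0.196). Psme1 shares 7 exon bases with Emc9 on the opposite strand. Psme2 was at 88.8, 76.7 and 76.1 CPM in controls and 84.6, 83.7 and 73.7 CPM in the knockdown, with an interval of the log2 fold change from -0.22 to 0.23. It has a near-identical copy, Psme2b, with 794 matching bases. Psme3, a nuclear activator of the same family, was at 178, 166 and 160.3 CPM in controls and 144, 140.3 and 152 CPM in the knockdown (log2 fold change -0.21, edgeR adjusted p = 0.125). Psmf1, the inhibitor, was at means of 61.2 ± 6.15 and 60.7 ± 3.18 CPM (SD, n = 3 each), with overlapping groups.

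**Figure D3:**
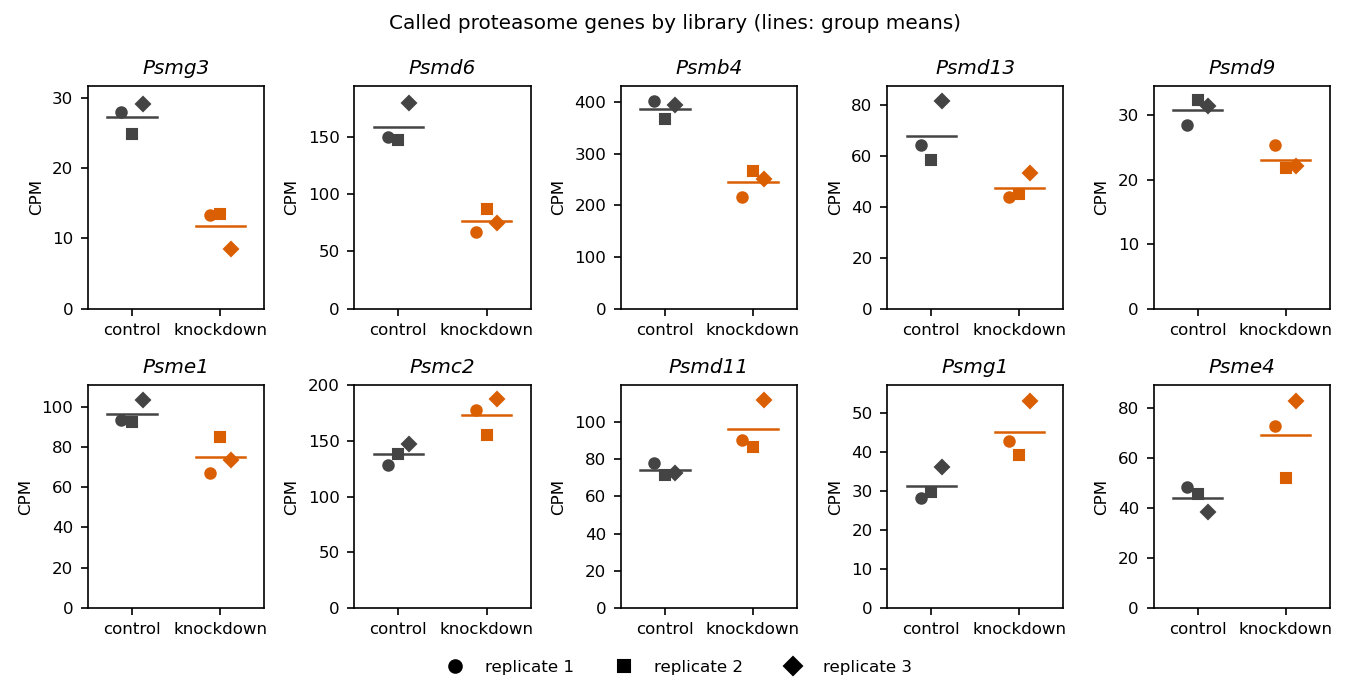
Panels show the level in CPM of the 10 called proteasome genes, from the largest decrease (Psmg3) to the largest increase (Psme4), with each y axis starting at 0. Points are libraries, with a symbol for each replicate number, and lines are group means of 3 libraries. In every panel the groups do not overlap, and knockdown library 2 (squares) lies nearest to the controls in 8 of 10.

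Knockdown library 2, which kept the most Satb1, was the library nearest to the control mean for 8 of the 10 called members. Its log2 ratio to the control mean was 0.24 for Psme4, where libraries 1 and 3 had 0.72 and 0.91. For Psmb4 the ratios were -0.84, -0.54 and -0.63 in knockdown libraries 1 to 3, and for Satb1 they were -2.04, -1.03 and -2.47. Psmd13 and Psmd9 were the exceptions, with library 3 (-0.35) and library 1 (-0.28) nearest. The same count was not made over all called genes, so it cannot be read as a trait of these members. They were also chosen by their difference in these libraries, and a relation to the Satb1 level was not tested.

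Levels of different genes were compared per length, as CPM per kb of exon, where exon length is the union of coding transcripts in GENCODE M21. In controls the 14 core genes other than Psma8 and Psmb11 lay between 82.1 (Psma2) and 405 (Psmb7) CPM per kb. Psmb4, at 327 CPM per kb, ranked 2 among these 14 in controls and 8 in the knockdown, at 207 CPM per kb. Psmd6, at 115 CPM per kb, ranked 4 of the 20 cap genes other than Psmc3ip in controls and 12 in the knockdown, at 55.1 CPM per kb. Among these 20 the gene with the highest level per length, Psmc5, was at 313 and 311 CPM per kb, and the lowest, Psmd9, at 11.8 and 8.90 CPM per kb. Psmg3 ranked 4 of 9 in its class in controls and 8 in the knockdown, at 30.9 and 13.3 CPM per kb, while Psme4 had the lowest level per length of that class in both groups (6.80 and 10.7 CPM per kb). Annotated exon ends that these neurons do not use lower such values, so small gaps in the order carry no weight.

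**Figure D4:**
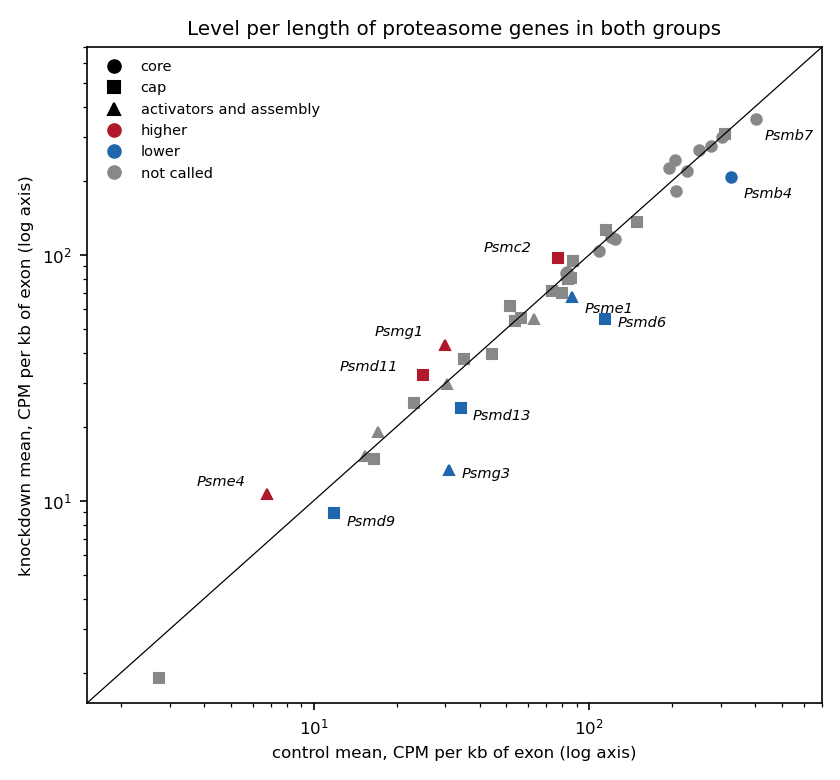
The mean level of each member in CPM per kb of exon is shown for controls (x axis, log scale) against the knockdown (y axis, log scale), with symbols for the 3 classes and colours for calls, leaving out Psma8 and Psmb11. The line marks equal levels. Psmb4, Psmd6 and Psmg3 lie below it and Psme4 above it, while most core genes lie on or near it.

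The transcription factors NRF1 and NRF2 (Nfe2l1 and Nfe2l2) induce proteasome genes through antioxidant response elements, and the promoters were searched for the core of this element, TGACNNNGC, on both strands. RefSeq promoter windows of GRCm38.p6, 250 bases before to 50 bases after the start, were at hand for 38 of the 46 members. The motif was in a window of 6 of these 38 genes (15.8%), against 14.0% of 27025 genes with a window, or 12.4% of 32851 windows. CCAAT, searched likewise on both strands, was in 14 of the 38 members (36.8%) and in 41.1% of all genes. By class it was in 7 of 12 core genes (58.3%), 6 of 18 cap genes (33.3%) and 1 of 8 genes of activators, inhibitor and assembly factors (12.5%). The members with the first motif were Psmb5, Psmb6, Psmc6, Psmd9, Psmd12 and Psme4, whose log2 fold changes ran from -0.41 (Psmd9, called lower) to 0.65 (Psme4, called higher). The windows of Psmb4, Psmd6 and Psmg3 had no match to it and none to CCAAT.

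The stretch from 130 bases before to 20 bases after the start is shown for 3 members with the element, which differ in their change, and for the 3 that fell most clearly. The motif is in capitals, and it starts at -47 in Psmb5, -31 in Psmd9 and, on the other strand, -7 in Psme4, counted from the start site. The stretches lie at chr14:54617976-54618125 (minus strand, Psmb5), chr5:123228060-123228209 (plus strand, Psmd9), chr11:30771645-30771794 (plus strand, Psme4), chr3:94886939-94887088 (minus strand, Psmb4), chr14:14120926-14121075 (minus strand, Psmd6) and chr5:139826875-139827024 (minus strand, Psmg3).
Psmb5: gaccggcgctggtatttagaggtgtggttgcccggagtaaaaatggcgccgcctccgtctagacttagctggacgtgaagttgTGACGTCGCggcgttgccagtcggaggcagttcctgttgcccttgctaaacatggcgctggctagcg
Psmd9: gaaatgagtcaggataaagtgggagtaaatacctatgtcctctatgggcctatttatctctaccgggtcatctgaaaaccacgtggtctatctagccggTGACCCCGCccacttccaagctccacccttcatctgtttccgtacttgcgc
Psme4: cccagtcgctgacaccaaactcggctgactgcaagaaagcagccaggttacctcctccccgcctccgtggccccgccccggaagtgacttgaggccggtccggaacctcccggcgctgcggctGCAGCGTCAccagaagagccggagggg
Psmb4: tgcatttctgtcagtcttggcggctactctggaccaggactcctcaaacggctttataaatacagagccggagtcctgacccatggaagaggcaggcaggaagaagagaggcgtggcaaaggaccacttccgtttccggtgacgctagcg
Psmd6: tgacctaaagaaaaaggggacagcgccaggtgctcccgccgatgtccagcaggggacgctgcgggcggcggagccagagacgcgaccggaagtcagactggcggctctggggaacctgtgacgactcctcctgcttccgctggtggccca
Psmg3: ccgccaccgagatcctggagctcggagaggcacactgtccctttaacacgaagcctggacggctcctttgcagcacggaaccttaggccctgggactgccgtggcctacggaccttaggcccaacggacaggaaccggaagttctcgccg

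Of a list of 18 factors that act with the proteasome 17 were in the table (Paaf1 was not analysed here), and 3 fell, 1 rose and 13 were not called. The called share, 23.5%, was near the 21.1% of all tested genes. It was below the 30.5% of genes whose mean reached 10 CPM, as that of all 17 did. Zfand2a, a stress-induced proteasome-binding protein gene, fell by 0.53 on the log2 scale (edgeR adjusted p = 0.00782), and Ube3a, a ubiquitin ligase gene, by 0.44 (edgeR adjusted p = 0.00906). Both calls were lost with total-count scaling (adjusted p = 0.0503 and 0.0581), and that of Ube3a also without knockdown library 1 (0.0566). Exons of Ube3a share 3544 bases with genes on the opposite strand, among them Snhg14. Txnl1, a thioredoxin-like protein of the cap, rose from 306, 304 and 309 CPM to 388, 355 and 444 CPM, a log2 fold change of 0.37 (edgeR adjusted p = 0.0162), a call lost without control library 1 or 2 (adjusted p = 0.051 and 0.0718). The core maturation factor Pomp was at 436, 422 and 430.4 CPM in controls and 379, 388 and 355 CPM in the knockdown, without overlap, and its log2 fold change of -0.20 was not called (edgeR adjusted p = 0.104).

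A list of 17 regulators of proteasome gene expression held genes of the NRF1 and NRF2 pathway and its partners, and also Nfya, Nfyb and Nfyc. Of these 17, 2 rose, 1 fell and 14 were not called, a called share of 17.6% against 21.1% of all tested genes. Ufd1 (listed as Ufd1l), a partner of the unfoldase Vcp, rose from 77.0, 84.9 and 78.0 CPM in controls to 122, 114 and 134 CPM in the knockdown, a log2 fold change of 0.62 ± 0.10 (edgeR adjusted p = 0.00117) that all 14 alternative analyses called. Its exons share 52 bases with Cdc45 on the opposite strand. Vcp itself (-0.07) and Nploc4 (0.21), the third protein of that complex, were not called. Ngly1, which removes sugar chains from NRF1 and so activates it, rose by 0.38 (edgeR adjusted p = 0.0358), a call lost without any single library other than knockdown library 2 (adjusted p from 0.0517 to 0.102). Keap1, the adaptor that has NRF2 degraded, fell by 0.46 on the log2 scale (edgeR adjusted p = 0.0173), and its exons share 510 bases with Gm16754 on the opposite strand. Scaling to total counts ended this call, as did leaving out control library 1 or 2 or knockdown library 1 or 3 (adjusted p from 0.0504 to 0.1). Nfe2l1 was at 279, 282 and 279.7 CPM in controls and 247, 268 and 242 CPM in the knockdown, without overlap but not called (log2 fold change -0.15, interval -0.33 to 0.03). Nfe2l2 was at means of 8.05 and 9.14 CPM and was not called (edgeR adjusted p = 0.507).

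The polyubiquitin gene Ubb was at 1924, 2061 and 2359 CPM in controls and 1930.0, 1928 and 2471 CPM in the knockdown, overlapping ranges with a log2 fold change of -0.00 that was not called.

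The 3 immunoproteasome genes, which replace the proteolytic subunits after interferon, were not called by edgeR, DESeq2 or limma-voom, and 1, Psmb10, was lower at an unadjusted p under 0.05. Psmb10 was at 63.8, 59.7 and 52.2 CPM in controls and 47.1, 53.0 and 41.1 CPM in the knockdown, a log2 fold change of -0.32 (edgeR adjusted p = 0.084). It passed the threshold without knockdown library 2 (adjusted p = 0.0448). Psmb8 was at 3.08, 2.25 and 2.01 CPM in controls and 3.56, 2.75 and 2.58 CPM in the knockdown, overlapping ranges with an adjusted p = 0.535 by edgeR. Psmb9 was at 0.959, 1.29 and 4.30 CPM in controls and 5.25, 2.32 and 4.49 CPM in the knockdown. Its log2 fold change was 0.88, with an interval from -0.18 to 1.94 (edgeR adjusted p = 0.231), and control library 3 alone lay among the knockdown libraries. Without that library the adjusted p was 0.0103. Exons of Psmb9 share 212 bases with Tap1 on the opposite strand, and Psmb8 shares 186 with Gm20496.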

How the data were processed

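Each of the 6 libraries has 1 column of whole-number counts per gene in the table that the authors deposited. Per the submitters' processing notes, TopHat2 2.0.8 and mm10 were used. How reads were counted, with or without strand, is not given in the sources used here. Columns were matched to samples by the initials and number in the sample titles.

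The fit was made on the whole table with edgeR 4.0.16 in R 4.3.3: TMM scaling, filterByExpr (minimum count 10, minimum total 15), the quasi-likelihood F-test and Benjamini-Hochberg adjustment over 16766 genes at 0.05. Standard errors came from the F statistic. The 95% intervals used the total degrees of freedom of the quasi-likelihood fit, which add prior to residual degrees of freedom. On simulated counts for these 16766 genes, with 100 genes changed 1.5-fold and 100 changed 2-fold, the fit recovered 34% and 72% and called 9 unchanged genes. The simulation changed far fewer genes than were called in the data and drew them from all levels. Its recovery rates therefore do not describe the members. Replicate libraries differed by far more than sampling noise (chi-square per gene of at least 58.5). No member had counts identical to another row.

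RefSeq gene identifiers (GRCm38.p6) matched all 46 members. Exon overlaps and lengths came from GENCODE M21, and near-identical transcripts from blastn 2.17.0 (at least 95% identity over 100 bases). Named genes were Satb1, all called members, Psmb5, Psmb6, Psmb7, every tested Psme, Psmf and Psmg gene, the 2 uncalled members of each class with the smallest p, the called genes of the pathway lists (at most 8, some of them not reported here), and Psmb8, Psmb9, Psmb10, Nfe2l1, Nfe2l2 and Pomp. Other members are named to account for all of them. The marker Map2 was not analysed here. The members and lists were chosen with earlier results of these data known.

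Alternatives were other scalings (relative log expression, total counts), DESeq2 1.42.0, limma-voom 3.58.1, filtering on a mean of 1 CPM or not at all, robust estimation of dispersion, blocking on the replicate number, and leaving out each library in turn.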

Additional observations from a re-analysis of the deposited data

How the results depend on the processing

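With total-count scaling, 1 core, 1 cap and 1 activator or assembly gene was lower (Psmb4, Psmd6 and Psmg3), and 2, 4 and 2 were higher. In the pathway lists 2 genes were then lower and 6 higher. DESeq2 called 1 core gene higher, and the filter at a mean of 1 CPM called 2 (Psma5 and Psmb5). Relative log expression scaling, limma-voom, no filter and the robust dispersion gave the main counts for the 3 classes and the pathway lists. When single libraries were left out, between 0 and 1 core genes were higher, between 1 and 3 cap genes lower and between 0 and 2 higher. Activator and assembly genes were between 1 and 2 in each direction, and pathway genes between 2 and 6 lower and between 1 and 3 higher. Calls for Psmb4, Psmd6, Psmg3 and Psme4 were kept in all 14 alternatives. With the replicate number as a block, 2 core genes were lower and 2 higher, 3 cap genes higher and 8 pathway genes lower. Over all genes 2789 were lower and 1924 higher with the block, against 2115 and 1421; total-count scaling gave 972 and 2770, and leaving out knockdown library 1 gave 1132 and 804. Deviations from the group means of same-numbered libraries had correlations of 0.0564, 0.0127 and 0.108. Each control library correlated best with the knockdown library of its own number. For control library 2 the other values were 0.000218 and -0.0123. Knockdown library 2 correlated better with control library 1 (0.048) than with its own number. Such small correlations and the labels do not settle whether the numbers are pairs, and the main fit has no block. At under 40 counts in every library, Psma8 and Psmb11 allow no statement.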

Other observations

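On each side of a called member, the protein-coding gene with the smallest gap was taken as its neighbour. Of these, the nearest tested ones to Psmb4, Psmd6 and Psmg3 were not called. Psmb4 lies 1767 bases from Pogz, which was at a log2 fold change of -0.12 (edgeR adjusted p = 0.439). Psmd6 lies 4872 bases from Atxn7, at -0.25 (edgeR adjusted p = 0.306). Psmg3 lies 81058 bases from Elfn1, at -0.06 (edgeR adjusted p = 0.718). On the other side of Psmg3 the neighbour, Gm26938, was not tested. Mafk, on that side and closer to Psmg3 than Elfn1, was at 0.09 (edgeR adjusted p = 0.841). The start of Psmc2, which rose, is 32 bases from that of Dnajc2 on the opposite strand, and Dnajc2 was at 0.07 (edgeR adjusted p = 0.727). The start of Psmd13, which fell, is 341 bases from that of Sirt3 on the opposite strand, at -0.10 (edgeR adjusted p = 0.656). Among the other tested neighbours of called members, Cdk5r1, Cox8b, Setd1b and Gpr75 were not called either. Over all tested genes, 21.1% were called in either direction. The called share of the tested neighbours, all named here, was larger, but they are few and the difference was not tested. Of the neighbours, 3 were called in the direction of their member. They were Emc9 beside Psme1, at -0.36 (edgeR adjusted p = 0.0403) and with 7 shared exon bases, Ets2 on the far side of a gap of 258882 bases from Psmg1, at 0.56 (edgeR adjusted p = 0.0407), and Slc26a5 beside Psmc2, at 4.06 (edgeR adjusted p = 0.0347) with a mean of 0.118 CPM. Those called against the direction of their member were 4, namely Brwd1, 1132 bases from Psmg1, at -0.46 (edgeR adjusted p = 0.00357), Selenbp1, 46095 bases from Psmb4, at 1.77 (edgeR adjusted p = 0.0106), Zfp207 beside Psmd11, at -0.34 (edgeR adjusted p = 0.0376), and Acyp2 beside Psme4, at -0.37 (edgeR adjusted p = 0.0431).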
